A study of Mus musculus with 6 samples.

Results

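The transcripts described here belong to the endothelin, angiotensin and adrenomedullin systems of the mouse aortic arch: Edn1, Ednra, Ednrb and Ece1, then Ace and Agtr1a, then Adm, Calcrl, Ramp1 and Ramp2. They were taken by gene symbol from a list of 10 vasoactive peptide, enzyme and receptor genes, and all 10 were found among the 14298 genes of the deposited table. By the series' design text, RNA came from the arches of 3 control and 3 knockout mice. Each library is named by the number in its column (controls S591, S592 and S594, knockouts S595, S598 and S599). Every animal was an adult of the C57/BL6 strain that lacked apolipoprotein E (ApoE-/-), which makes mice prone to atherosclerosis, and carried RBPJflox/flox, floxed alleles of Rbpj, whose protein binds DNA and turns on target genes of Notch. Knockout animals also carried Cdh5-CreERT, a recombinase driven by the promoter of an endothelial cadherin. All animals, controls included, received tamoxifen for 1 week from an age of 8 weeks and then ate a high-fat diet for 6 weeks. The controls carried no recombinase, so its presence and the deletion cannot be told apart, and the sex of the animals is not given in the labels. No label ties a column of the table to a named animal, so p-values measure the spread between these libraries.

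These peptides set the calibre of arteries. Endothelin is made mainly by endothelial cells as a precursor that the endothelin-converting enzyme (Ece1) cuts to the active peptide, and its type A receptor (Ednra) on smooth muscle contracts the vessel, while the type B receptor (Ednrb) also releases nitric oxide from endothelium and clears the peptide. The angiotensin-converting enzyme (Ace) on endothelium forms angiotensin II, which contracts smooth muscle through its type 1 receptor (Agtr1a). Adrenomedullin (Adm) dilates vessels through the calcitonin receptor-like receptor (Calcrl) paired with the accessory protein Ramp2, and the same receptor paired with Ramp1 binds calcitonin gene-related peptide (CGRP), a dilator released by sensory nerves.

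Levels are given as normalised signal, in CPM (reads counted on a gene, scaled to library size), with the mean ± SD over 3 libraries per group. A log2 fold change is the knockout mean minus the control mean of log2(CPM + 1), a scale that understates differences of low genes, and adjusted p-values are from limma over all 14298 genes by the method of Benjamini and Hochberg. The libraries held 5904504 to 10072495 reads over the genes listed. Rbpj itself averaged 189 ± 13.2 CPM in controls and 193 ± 21.7 CPM in knockouts (adjusted p = 0.923, limma), with overlap, in RNA of a whole wall that endothelium shares with other cell types, so the labels are not checked by it. Markers of an arterial wall were present: the smooth muscle gene Myh11 ranged from 3259 to 8318 CPM over the 6 libraries, the endothelial gene Pecam1 from 282 to 435 and the macrophage gene Cd68 from 73.1 to 381. Of the knockout libraries, S598 and S599 stood apart in thymocyte transcripts, with a summed level of 12 listed markers (10 in the table) of 216 CPM in S598 and 88.1 in S599, against 25.3 in S595 and 29.9 to 38.7 in the controls. Airway epithelium markers (5 in the table) summed to 2.75 to 10.5 CPM in the controls and 63.0 to 87.0 in the knockouts, and the part of such tissue in the results was not tested. In whole-tissue RNA, fewer cells of a type and less RNA per cell cannot be told apart.

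Of the 10 transcripts, the endothelin-converting enzyme Ece1 was lower and the CGRP receptor partner Ramp1 was higher in every knockout library than in every control library, and the other 8 overlapped between the groups. No transcript of the 10 passed an adjusted p of 0.05 in either direction by limma, a level that 0.0210% of all genes reached. At an unadjusted p of 0.05, 1 of 10 was lower and 1 of 10 higher, against 12.0% and 8.04% of all genes. The values of the knockout arches lay wholly below those of the controls for 1 of 10, against 14.2% of all genes, and wholly above them for 1 of 10, against 11.3%. These shares are close to those of all genes. The median log2 fold change of the 10 was −0.015, beside −0.018 over all genes.

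**Figure D1:**
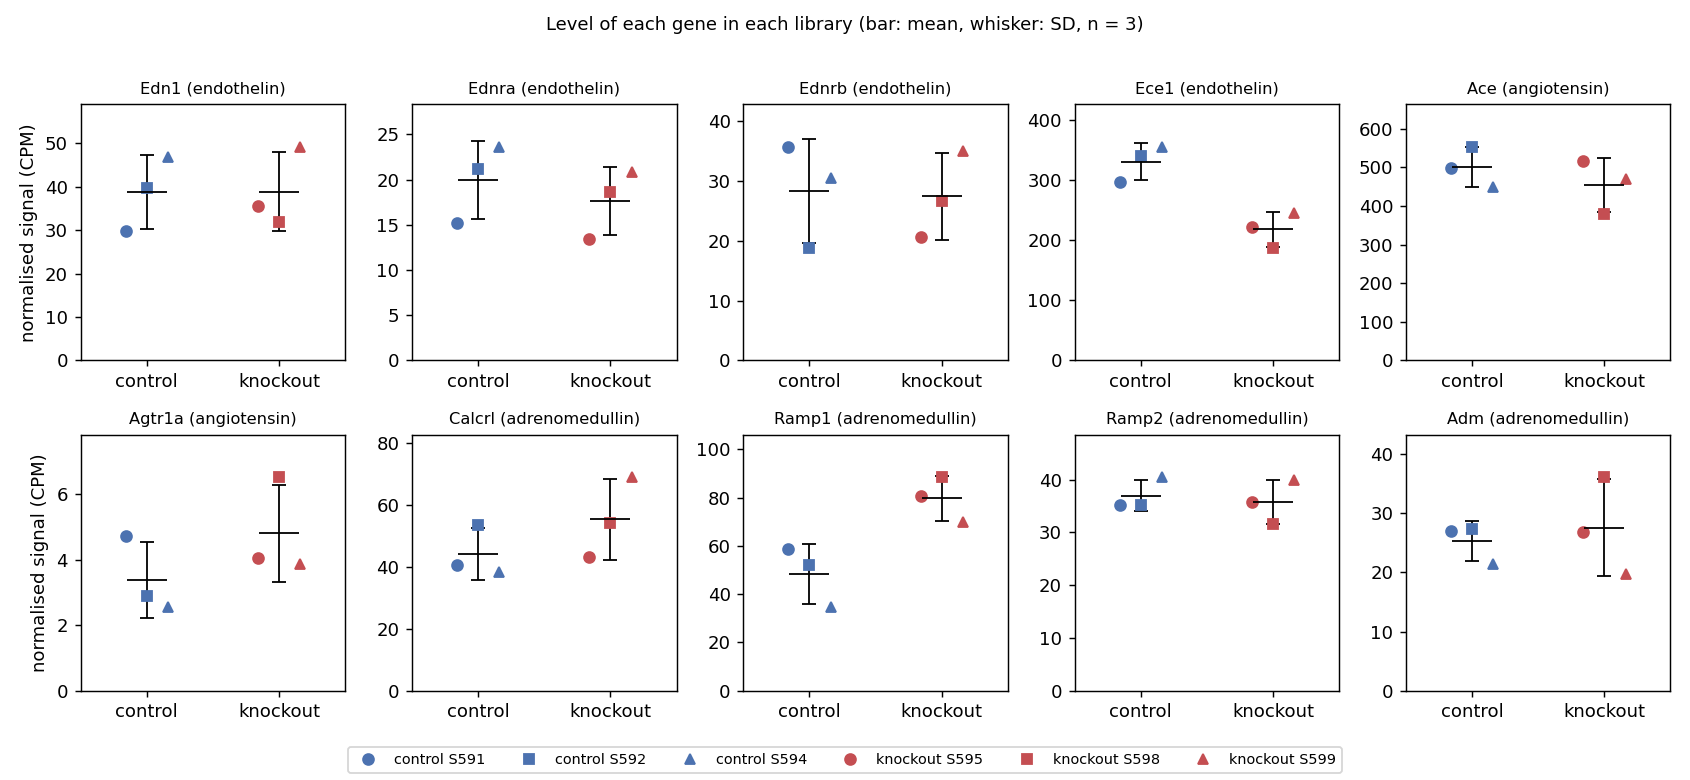
Normalised signal (CPM, linear axes from 0) of the 10 transcripts in each of 3 control (blue) and 3 knockout (red) libraries, with the mean as a bar and the SD as whiskers. The groups are apart for Ece1 (knockout lower) and Ramp1 (knockout higher) and overlap in the other 8 panels.

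The endothelin ligand had nearly equal means in both groups. Edn1 (ENSMUSG00000021367), the gene of endothelin-1, stood at 29.9, 39.8 and 46.9 CPM in controls S591, S592 and S594 and at 35.5, 31.9 and 49.2 in knockouts S595, S598 and S599. The means were 38.9 ± 8.51 and 38.8 ± 9.11 (SD, n = 3 each), and the lowest and the highest library belonged to different groups. The log2 difference had a 95% interval of −0.49 to 0.49, or 0.713-fold to 1.40-fold (adjusted p = 0.998, limma), so differences inside that interval were not excluded by these libraries. Edn1 was highest in knockout S599, which also had the highest summed level of the 16 endothelial markers (1878 CPM, against 1265 to 1313 in the other knockouts and 1543 to 1590 in the controls). Set against the mean log2 level of those markers in the same library, the Edn1 difference was 0.08, with overlapping groups.

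The converting enzyme showed the clearest difference of the endothelin genes. Ece1 (ENSMUSG00000057530) stood at 297, 341 and 355 CPM in controls S591, S592 and S594, and at 223, 187 and 245 in knockouts S595, S598 and S599. All 3 knockout values lay below all 3 control values, and the gap between the nearest pair (S591 and S599) was larger than the SD of either group. The means were 331 ± 30.4 and 218 ± 29.1, a difference of 1.52-fold, from 1464 to 2865 reads per library. On the log2 scale the difference was −0.60 (standard error 0.13, 95% interval −0.91 to −0.29, adjusted p = 0.111 by limma), so the difference missed the threshold over all genes. It was past the threshold with DESeq2 (adjusted p = 0.00749), which called 4.44% of genes lower and 2.07% higher, and with array weights in limma (adjusted p = 0.0353), which called 5.06% lower and 2.01% higher. It also passed without control S591 (log2 fold change −0.68, adjusted p = 0.0458, limma). In that fit 669 of 14166 genes passed, beside 3 of 14298 with all 6 libraries. Over the alternatives other than the fit without S598 and S599, the adjusted p of Ece1 ran from 0.00749 to 0.353.

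Against cell type markers of the wall, Ece1 stood lower for endothelial and smooth muscle markers and higher for macrophage markers. Relative to the mean log2 level of the 16 endothelial markers, the knockout minus control difference was −0.52, and relative to the 12 smooth muscle markers it was −1.26, with the groups apart in both. Relative to the 12 macrophage markers it was 0.62, with the groups apart in the other direction, as those markers were lower still in the knockout arches. Relative to the endothelial markers, every other member overlapped between the groups. The shifts relative to the macrophage and smooth muscle markers were not particular to Ece1. Relative to the macrophage markers the other members were higher too, at 1.05 (Ednra) to 1.95 (Ramp1), and only Adm overlapped. The gap was near 0 for Ednrb, where control S591 and knockout S595 both stood at 0.224, centred on the mean of the 6 libraries. It was also narrow for Ece1 (−0.012 in control S591 and 0.016 in knockout S599). Relative to the smooth muscle markers Ace (−0.80) and Adm (−0.57) were also lower, with the groups apart. All 12 macrophage markers were lower at an unadjusted p of 0.05 and 0 at an adjusted one (limma), with a median of −1.29, and their summed level was 6349 to 10780 CPM in the controls against 2541 to 6318 in the knockouts. In each group the library with the most Ece1 was also the one with the most macrophage signal (S594 and S599), and knockout S598 had the least of both. The 10 fibroblast markers were lower too: 9 had a negative log2 fold change, with a median of −0.34, 3 were lower at an unadjusted p of 0.05 and 0 at an adjusted one (limma). Their summed level was 12795 to 20507 CPM in the controls and 9208 to 12548 in the knockouts. Among the controls it was, like Ece1, lowest in S591 and highest in S594. Among the knockouts it was lowest in S598, as was Ece1, but highest in S595, where Ece1 was highest in S599. The part of macrophages and fibroblasts in the Ece1 difference was not tested.

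The endothelin receptors overlapped between the groups. Ednra (ENSMUSG00000031616), the contractile type A receptor, stood at 15.2, 21.1 and 23.6 CPM in controls S591, S592 and S594 and at 13.5, 18.7 and 20.8 in knockouts S595, S598 and S599. The 2 lowest values came from S591 and S595, 1 library of each group. The log2 fold change was −0.17 with a 95% interval of −0.67 to 0.33 (adjusted p = 0.709, limma). Ednrb (ENSMUSG00000022122), the type B receptor, stood at 35.6, 18.7 and 30.5 CPM in the controls and at 20.6, 26.6 and 35.0 in the knockouts, in the same order of libraries. Its log2 fold change was −0.029 with a 95% interval of −0.65 to 0.60 (adjusted p = 0.962, limma), and both the highest and the lowest library were controls. The within-library log2 ratio of Ednrb to Ednra, in which gene length cancels when libraries are compared, was 0.48 ± 0.71 in the controls and 0.62 ± 0.12 in the knockouts (SD, n = 3 each). That ratio was spread widely among the controls, from −0.18 in S592 to 1.23 in S591, and the knockout values lay inside that range.

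The ratio of ligand to converting enzyme was higher in the knockout arches. The Edn1 signal was 0.101, 0.117 and 0.132 of the Ece1 signal in controls S591, S592 and S594 and 0.159, 0.170 and 0.201 in knockouts S595, S598 and S599. All 3 knockout ratios were above the control ratios, and the mean log2 difference was 0.60, the size of the Ece1 difference, as Edn1 had nearly the same mean in both groups. The ratio was described and not tested, since it was formed from a pair of listed genes. Among 9 ratios formed, only this one and that of Ramp1 to Ramp2 had the groups apart. The ratio of Ednra to Ece1 overlapped, with knockout S595 (0.0604) below control S592 (0.0620).

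In the angiotensin system neither gene separated the groups. Ace (ENSMUSG00000020681) stood at 499, 552 and 449 CPM in controls S591, S592 and S594 and at 515, 378 and 470.2 in knockouts S595, S598 and S599. Only knockout S598 lay below all the controls. The means were 500.1 ± 51.8 and 455 ± 69.9, with a log2 fold change of −0.14 and a 95% interval of −0.50 to 0.21 (adjusted p = 0.640, limma). Agtr1a (ENSMUSG00000049115), the type 1 angiotensin receptor, was the least abundant of the 10, at 4.71, 2.88 and 2.54 CPM in the controls and 4.03, 6.51 and 3.85 in the knockouts. Knockout S598 was the highest and control S591 the second highest, so the groups overlapped. The log2 fold change was 0.41 with a 95% interval of −0.22 to 1.04 (adjusted p = 0.441, limma). Only 20 to 67 reads per library lay behind these values: the exact 95% Poisson interval, which covers counting error only, was 1.51 to 3.83 CPM for control S594 and 5.01 to 8.20 for knockout S598.

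Of the adrenomedullin and CGRP genes, the accessory protein Ramp1 differed most. Ramp1 (ENSMUSG00000034353) stood at 58.7, 52.2 and 34.6 CPM in controls S591, S592 and S594 and at 80.7, 88.5 and 70.1 in knockouts S595, S598 and S599. The groups were apart, with control S591 and knockout S599 nearest each other. On the log2 scale the difference was 0.73 (standard error 0.20, 95% interval 0.27 to 1.19, or 1.21-fold to 2.28-fold, adjusted p = 0.127 by limma), from 279 to 917 reads per library. It passed the threshold with DESeq2 (adjusted p = 0.0237) and with array weights in limma (adjusted p = 0.0473), and its adjusted p over the 18 alternatives ran from 0.0237 to 0.517.

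Ramp1 was set against the smooth muscle markers library by library. Against the mean log2 level of the 12 smooth muscle markers, the knockout minus control difference of Ramp1 was 0.079 and the groups overlapped. The markers themselves had a median log2 fold change of 0.64, all 12 were positive, and their summed level was 13814 to 24066 CPM in the controls and 24369 to 33284 in the knockouts. Both were lowest in control S594 and highest in knockouts S595 and S598. Relative to the endothelial markers the Ramp1 groups also overlapped, at a difference of 0.81. Relative to the macrophage markers they were apart, at 1.95. The part of smooth muscle content in the Ramp1 difference was not tested.

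The receptor, its other partner and the ligand overlapped between the groups. Calcrl (ENSMUSG00000059588) stood at 40.4, 53.6 and 38.2 CPM in controls S591, S592 and S594 and at 43.0, 53.9 and 68.8 in knockouts S595, S598 and S599. The log2 fold change was 0.31 with a 95% interval of −0.15 to 0.77 (adjusted p = 0.420, limma). The highest value belonged to S599, the library with the most endothelial signal. Set against the mean log2 level of the endothelial markers in the same library, the Calcrl difference was 0.39, with overlapping groups. Without S598 and S599 the log2 fold change was −0.02. Ramp2 (ENSMUSG00000001240), the adrenomedullin receptor partner, was the steadiest of the 10 over all 6 libraries, at 35.3, 35.2 and 40.4 CPM in the controls and 35.8, 31.6 and 39.9 in the knockouts. Its log2 fold change was −0.050 with a 95% interval of −0.34 to 0.24, that is 0.790-fold to 1.18-fold (adjusted p = 0.857, limma). Adm (ENSMUSG00000030790) stood at 27.1, 27.4 and 21.5 CPM in the controls and at 26.9, 36.1 and 19.7 in the knockouts, so that the knockouts held both the lowest and the highest value. Its log2 fold change was 0.085 with a 95% interval of −0.42 to 0.59 (adjusted p = 0.862, limma).

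The ratio between the accessory proteins was also described. The Ramp1 signal was 1.66, 1.48 and 0.856 times the Ramp2 signal in controls S591, S592 and S594 and 2.25, 2.80 and 1.76 times in knockouts S595, S598 and S599, values not corrected for gene length. All 3 knockout ratios were above the control ratios, with S591 and S599 closest, and the mean log2 difference was 0.80. Leaving out 1 library at a time gave 0.50 (without control S594) to 0.98 (without control S591). As Ramp2 had nearly the same mean in both groups (log2 fold change −0.050), the separation of this ratio largely restates that of Ramp1. Relative to the receptor Calcrl the Ramp1 ratio overlapped between the groups, with a log2 difference of 0.43, which ran from 0.25 (without S595) to 0.69 (without S599) with 1 library left out.

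**Figure D2:**
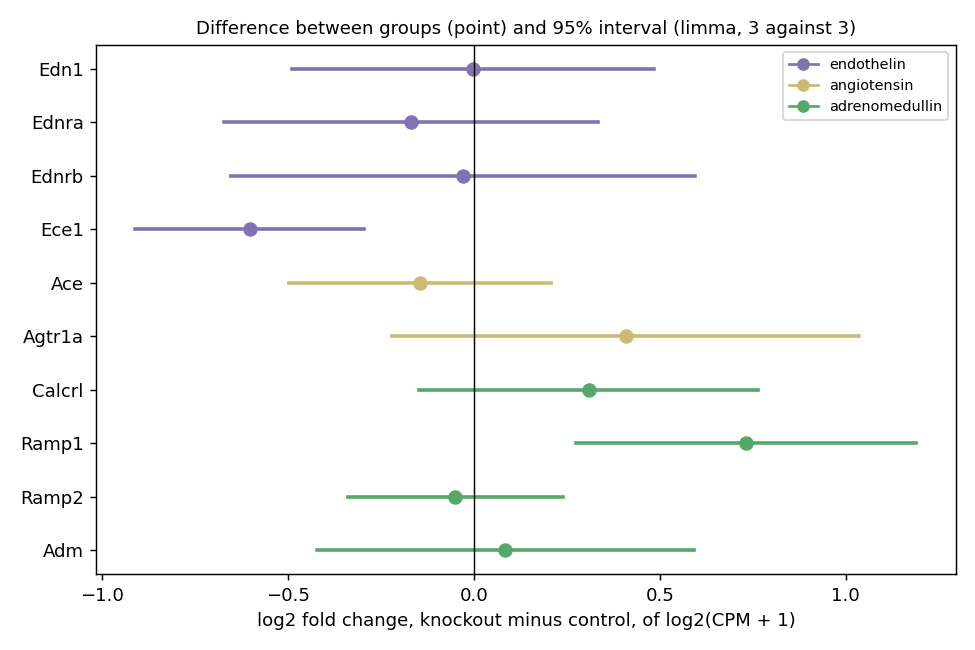
Log2 fold change (knockout minus control, points) and 95% interval (lines) of the 10 transcripts from limma on log2(CPM + 1), 3 libraries per group, coloured by system. The interval excludes 0 for Ece1 (−0.91 to −0.29) and Ramp1 (0.27 to 1.19) and includes it for the other 8.

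**Figure D3:**
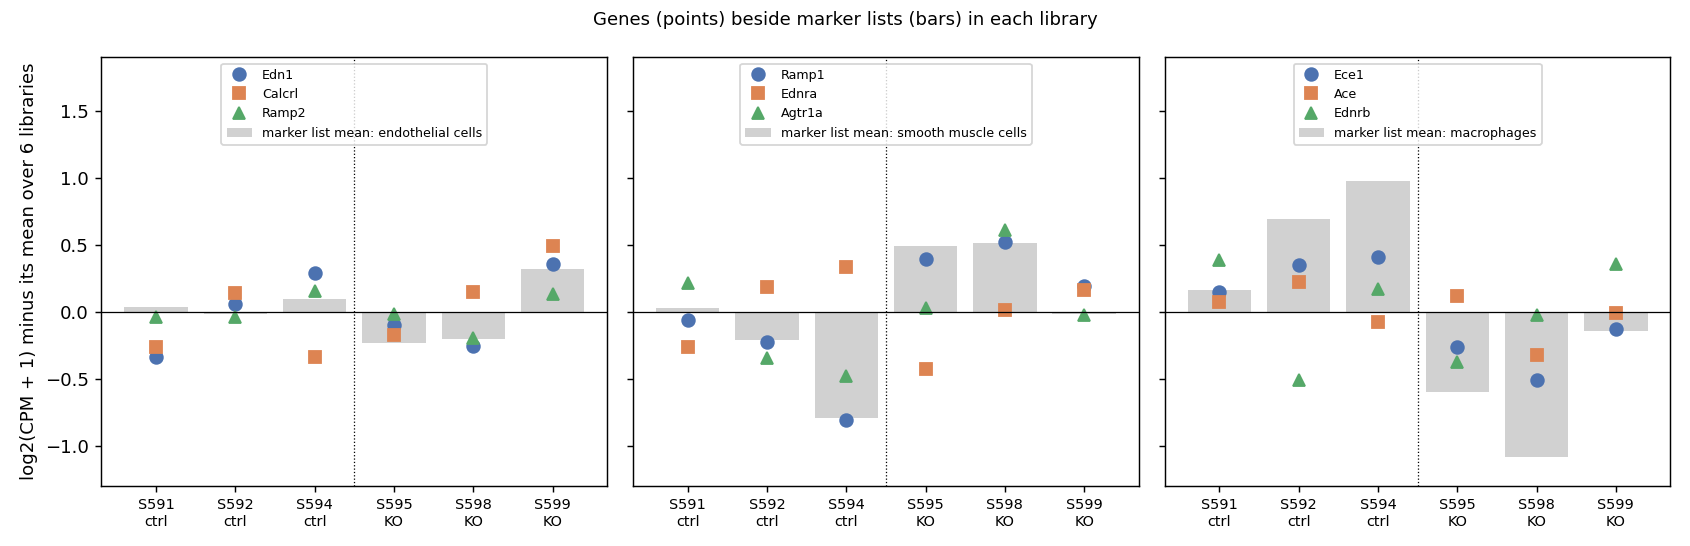
Points show log2(CPM + 1) of 9 of the genes, each minus its own mean over the 6 libraries, and bars the same for the mean of a marker list (endothelial, smooth muscle or macrophage), with controls left of the dotted line. Ramp1 lies within 0.21 of the smooth muscle bar in every library, with the opposite sign in S591 and S599, and Ece1 has the sign of the macrophage bars and a smaller size in every library.

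Per kilobase of exon, the 2 converting enzymes were the most abundant of the set. Averaged over the 6 libraries, Ace stood at 90.3 ± 11.4 CPM per kilobase (SD, n = 6) and Ece1 at 51.8 ± 12.7, and their ranges did not overlap. Ramp1 (21.2 ± 6.53), Edn1 (18.2 ± 3.69) and Adm (16.3 ± 3.54) followed, and each overlapped with the next in range. Ramp2 (11.0 ± 1.002) and Calcrl (10.2 ± 2.36) came next, then Ednrb (6.53 ± 1.68). Within the groups the order turned in places: Ramp1 stood at 16.1 ± 4.13 in the controls, below Edn1 at 18.2 ± 3.98, and at 26.4 ± 3.06 in the knockouts, above Edn1 at 18.2 ± 4.26 (SD, n = 3 each). By mean, Ramp2 stood above Calcrl in the controls (11.2 ± 0.911 and 9.03 ± 1.70) and below it in the knockouts (10.8 ± 1.26 and 11.3 ± 2.65). This order did not hold in every library: Calcrl was the higher in control S592 and the lower in knockout S595. Ednra (3.44 ± 0.703) and Agtr1a (1.47 ± 0.511) were the lowest, and the ranges of these receptors were apart from each other and from Ednrb. The exon lengths come from an annotation of another release than the one behind the deposited values, so they are approximate.

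Profiles over the 6 libraries were compared by the mean absolute difference of log2(CPM + 1), each gene centred on its own mean, over 11723 genes with a mean of at least 5 CPM. Nearest to Ramp1 were Npnt, the gene of the matrix protein nephronectin (0.030), Dstn, that of the actin-depolymerising protein destrin (0.033), and Myom1, that of the sarcomere protein myomesin (0.035). Nearest to Ece1 were the lipid kinase gene Pi4k2a (0.032), the iron transporter gene Slc11a2 (0.034) and the lysosomal membrane protein gene Glmp (0.035). Within the set the nearest pair was Edn1 and Ramp2 (0.15) and the most distant Ece1 and Ramp1 (0.67). With 6 libraries and so many genes searched, close profiles are frequent, and the names are given as a description.

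Because Rbpj was the floxed gene, the 250 bases before each RefSeq start (GRCm38.p6) were searched for TGGGAA, the core of the RBPJ binding motif, on both strands. RefSeq windows were at hand for 8 of the 10 genes, 12 windows in all, and not for Agtr1a or Ramp2. The motif was found in 1 window each of Ece1, Ramp1 and Adm, and in 21.6% of all 32851 windows of this length. The 3 windows with a match are printed 5′ to 3′ on the gene's strand, with the match in capitals.
Ramp1 (chr1:91179572-91179821, + strand): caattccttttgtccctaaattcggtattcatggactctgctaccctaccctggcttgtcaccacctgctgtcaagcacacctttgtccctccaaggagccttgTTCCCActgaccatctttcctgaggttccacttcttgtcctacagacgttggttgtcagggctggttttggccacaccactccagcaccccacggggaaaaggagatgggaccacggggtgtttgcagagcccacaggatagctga
Ece1 (chr4:137920543-137920792, + strand): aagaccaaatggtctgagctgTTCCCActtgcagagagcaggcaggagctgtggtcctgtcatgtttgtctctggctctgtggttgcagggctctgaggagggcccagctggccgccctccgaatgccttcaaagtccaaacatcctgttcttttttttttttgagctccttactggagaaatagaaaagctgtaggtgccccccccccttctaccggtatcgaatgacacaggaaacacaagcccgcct
Adm (chr7:110627407-110627656, + strand): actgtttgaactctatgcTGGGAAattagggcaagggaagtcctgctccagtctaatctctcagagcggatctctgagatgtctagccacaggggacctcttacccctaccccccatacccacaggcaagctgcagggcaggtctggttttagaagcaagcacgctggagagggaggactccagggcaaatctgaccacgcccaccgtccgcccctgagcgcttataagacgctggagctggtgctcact
The matches begin 146, 229 and 232 bases before the start of Ramp1, Ece1 and Adm, and the Ece1 window is that of the most downstream of 4 starts. The hypoxia motif ACGTG, also read on both strands, lay in 1 further Ece1 window (16.6% of all windows), and the GATA motif AGATAA (9.99%), the AP-1 motif TGACTNA (11.7%) and the CArG box of smooth muscle genes (1.47%) were not found in these 12 windows. These are matches of letters, and the data hold no measurement of binding.

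Other genes of these pathways lay in both directions. Of 69 genes in 5 lists, 48 were in the table, and 0 passed an adjusted p of 0.05 by limma. Without adjustment 8 of 48 were lower at p of 0.05 and 8 higher, beside 12.0% and 8.04% of all genes. The groups were apart for 13 (lower) and 6 (higher), beside 14.2% and 11.3% of all genes. With so few genes in each list, the counts below are to be read against these shares and set no list apart. The median log2 fold change was 0.0064. Ren1, the gene of renin, was in the table at 0.0786 to 2.36 CPM, with overlapping groups, and Edn2, Edn3, Agt, Agtr1b, Agtr2, Ramp3 and Adm2 were not matched in the table and are not analysed here.

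Around endothelin, 3 of 8 genes were lower and 0 higher without adjustment (p of 0.05, limma), beside 12.0% and 8.04% of all genes. Arrb2, the gene of a β-arrestin that uncouples and internalises receptors, stood at 53.0, 60.8 and 86.0 CPM in controls S591, S592 and S594 and at 35.1, 29.4 and 32.0 in knockouts S595, S598 and S599 (log2 fold change −1.003, adjusted p = 0.107, limma). Furin, whose protease makes the first cut in the endothelin precursor, stood at 137 ± 25.8 and 87.6 ± 5.90 (−0.62, adjusted p = 0.112), and the groups were apart. The other β-arrestin gene, Arrb1, stood at 139 ± 9.27 and 105 ± 19.5 (−0.41, adjusted p = 0.167). For Furin, Arrb1 and Arrb2, as for Ece1, each knockout value was below each control value, while Edn1 and its receptors overlapped. Those 3 were named because they had the smallest p of the list, so their separation follows from the choice. The others of the list, Ece2, Mme, Pam, Gnaq and Gna11, overlapped, with log2 fold changes from −0.29 (Ece2) to 0.22 (Pam). Arrb2 and Furin passed the threshold in limma without control S591, at log2 fold changes of −1.15 and −0.72. In that fit 669 of 14166 genes passed, beside 3 of 14298 with all 6 libraries. The macrophage and fibroblast markers given above were lower in the same libraries, and their part in these differences was not tested.

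Around angiotensin, 3 of 10 genes were lower and 1 was higher on the same measure, beside the same 12.0% and 8.04%. The peptidase genes went both ways. Anpep, the gene of aminopeptidase N, averaged 324 ± 60.9 CPM in controls and 174 ± 72.5 in knockouts (log2 fold change −0.96, adjusted p = 0.157, limma), and neurolysin (Nln), which cuts small peptides, at 29.0 ± 4.61 and 20.5 ± 1.601 (−0.47, adjusted p = 0.148). Enpep, the gene of aminopeptidase A, which shortens angiotensin II, stood at 14.6 ± 2.10 and 20.2 ± 2.72 (0.44, adjusted p = 0.197). Aminopeptidase N is also made by myeloid cells, whose markers were lower in the same knockout libraries, and their part in the Anpep difference was not tested.

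Around adrenomedullin, 1 of 5 genes was lower and 1 was higher without adjustment (all genes 12.0% and 8.04%). Ackr3, the gene of a receptor that takes up chemokines and adrenomedullin without G protein signalling, stood at 140, 129 and 131 CPM in controls S591, S592 and S594 and at 104, 115 and 108 in knockouts S595, S598 and S599. These values lay close together within each group and apart between groups, with a log2 fold change of −0.29 (standard error 0.089, adjusted p = 0.151 by limma). Adcy6, the gene of an adenylyl cyclase that forms cyclic AMP, stood at 145 ± 28.4 and 185 ± 11.4 (0.37, adjusted p = 0.222), with overlap. Crcp, the gene of a CGRP receptor component, stood at 19.5 ± 0.983 and 16.1 ± 0.566 (−0.26, adjusted p = 0.277).

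Among 12 natriuretic peptide, kinin and related genes, 1 was lower and 5 were higher without adjustment, where all genes gave 12.0% and 8.04%. Npr1, the receptor through which atrial natriuretic peptide raises cyclic GMP, stood at 230, 201 and 180.3 CPM in controls S591, S592 and S594 and at 333, 314 and 244 in knockouts S595, S598 and S599 (log2 fold change 0.54, adjusted p = 0.131, limma). The groups were apart, and as for Ramp1 the lowest library was control S594. Vipr2, a receptor of vasoactive intestinal peptide, stood at 5.22 ± 0.180 and 7.87 ± 1.09 (0.51, adjusted p = 0.165). Bdkrb1, the kinin B1 receptor gene, stood at 1.93 ± 0.825 and 0.671 ± 0.148 (−0.78, adjusted p = 0.178), from 40 reads in all controls and 14 in all knockouts.

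Of 14 genes that carry or restrain receptor signals, 0 were lower and 1 was higher without adjustment (12.0% and 8.04% over all genes). Plcb4, a phospholipase C gene, averaged 335 ± 96.4 CPM in controls and 509 ± 67.8 in knockouts (log2 fold change 0.64, adjusted p = 0.177, limma). Without control S594 the log2 fold change of Plcb4 was 0.41. The smooth muscle markers had a median of 0.64, and their part in the Plcb4 difference was not tested. Itpr1, the gene of a calcium release channel, stood at 326 ± 72.8 and 422 ± 40.3 (0.39, adjusted p = 0.273), and Prkca, a protein kinase C gene, at 34.4 ± 1.96 and 29.0 ± 1.21 (−0.24, adjusted p = 0.260).

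**Figure D4:**
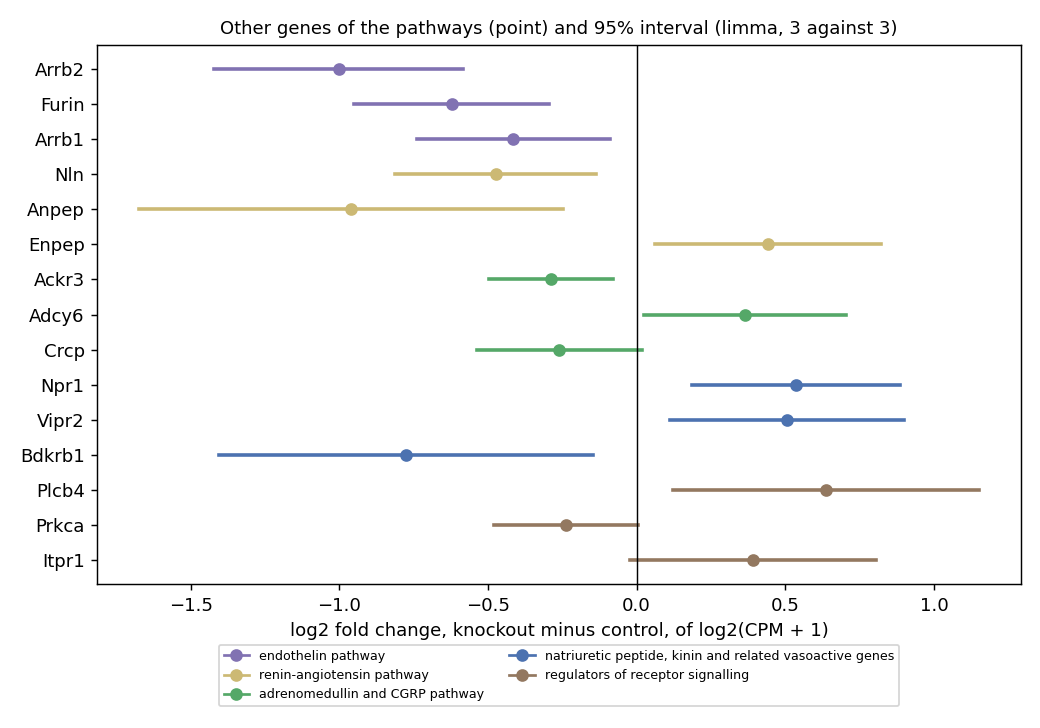
Log2 fold change (knockout minus control, points) and 95% interval (lines) of the 3 genes with the smallest p in each of 5 pathway lists, from limma on log2(CPM + 1). The 3 genes shown around endothelin lie left of 0. Of the receptor genes in the natriuretic peptide and kinin list, Npr1 and Vipr2 lie right of 0 and Bdkrb1 left of it.

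For 3 of the 10 transcripts the sign was the same under all alternatives run. Ece1 was lower in all 18 alternatives run, with log2 fold changes of −0.69 to −0.50, and Ramp1 was higher in all 18, from 0.51 to 0.88. Because the groups of both were apart, leaving libraries out or changing the pseudocount could not turn these signs. Every gene of the table already met the filter of 1 CPM in 3 libraries, so the fit with no filter repeated the main fit. The fit with no trend returned the same log2 fold changes as the main fit. The kept sign of Ece1 and Ramp1 is therefore largely a restatement of the separation of their groups. Agtr1a was higher in the 17 that gave it a value, from 0.21 to 0.63, with adjusted p of 0.173 to 0.911. When S598 and S599, which held most thymocyte RNA, were left out, the 1 remaining knockout library (S595), assumed to vary like the controls, gave −0.56 for Ece1 and 0.76 for Ramp1. The sign of the other 7 turned under at least 1 alternative.

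**Figure D5:**
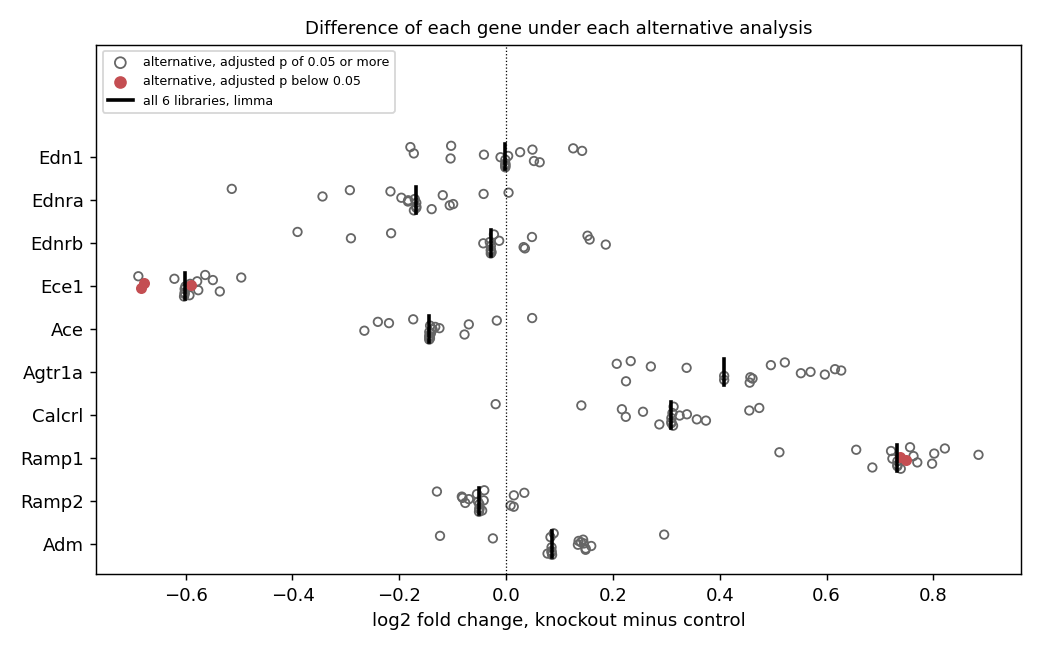
Log2 fold change (knockout minus control) of the 10 transcripts under each alternative (circles, red where the adjusted p was below 0.05) beside the fit of all 6 libraries by limma (black bars). The circles of Ece1 all lie below 0 and those of Ramp1 and Agtr1a above it, and red circles appear for Ece1 (3) and Ramp1 (2) only.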

How the data were processed

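PolyA RNA of mouse aortic arches was sequenced from 3 control and 3 knockout samples, grouped by their titles. The authors deposited a normalised signal, 1 value per gene and library. The submitters' processing notes name, with no roles, the build NCBIM37 and the tools Bowtie 0.12.7, RSEM 1.16, cutadapt 1.6.1, CASAVA 1.8, edgeR and limma. The annotation used and the strandedness of counting: not given in the sources used here. Each deposited value equals (reads + 0.5) times 1 step per library, and whole reads came back for 100% of values (tolerance 0.01). Identifiers were paired with symbols from GENCODE vM21 (13828 of 14298 matched). Genes needed at least 1 CPM in 3 libraries, which all 14298 met.

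The 2 groups entered limma (3.58.1, R 4.3.3) as log2(value + 1) with its trend option, two-sided and adjusted by Benjamini and Hochberg over all genes at a threshold of 0.05. The recovered reads served edgeR 4.0.16 and DESeq2 1.42.0 as alternatives. The comparison was tested on simulated data. The other alternatives were pseudocounts, filters, scalings, variance models, limma-voom and libraries left out. The members and lists were chosen with earlier results of these data known. All 10 members were named, and the 3 genes of smallest p in each pathway list with a mean of at least 1 CPM.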

Additional observations from a re-analysis of the deposited data

How the results depend on the processing

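No member of the set passed the adjusted threshold with all 6 libraries by limma. The count was 2 with array weights, 2 with DESeq2, and 0 to 1 with 1 library left out (1 without control S591). At an unadjusted p of 0.05, 2 members were found by limma, edgeR and limma-voom, 3 with array weights, 3 without knockout S595 and 1 without S598 and S599. Of all genes, 3 passed by limma. The count was 0 with a pseudocount of 0.5, with a minimum of 5 CPM, with edgeR's quasi-likelihood test, with limma-voom and without S598 and S599, 1 without a trend, 1011 with array weights and 894 with DESeq2, and 0 to 669 with 1 library left out. The 669 came without control S591. At an unadjusted p of 0.05 the counts were 2860 by limma, 2899 by edgeR, 2988 by limma-voom, 2858 with a pseudocount of 0.5, 2561 with a minimum of 5 CPM and 1337 without S598 and S599. The median log2 fold change of the 10 members ran from −0.15 (without knockout S599) to 0.066 (without knockout S595) with 1 library left out, and that of the pathway genes from −0.047 to 0.17, or −0.090 without S598 and S599.

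Signs turned as follows. Edn1 was at 0.063 with median scaling, 0.052 with quantile normalisation and 0.0038 with DESeq2, and at −0.18 to 0.14 with 1 library left out. Ednrb was at 0.035 with median scaling, 0.033 with quantile normalisation and 0.19 with array weights, and at −0.29 to 0.16 with 1 library left out. Ramp2 was at 0.014 with median scaling and 0.0084 with quantile normalisation, and at −0.13 to 0.034 with 1 library left out. With 1 library left out, Adm ran from −0.12 to 0.30 and Ednra from −0.34 to 0.0046. Without S598 and S599, Ace was at 0.049 and Calcrl at −0.020, and Ednra and Ednrb kept their sign at −0.51 and −0.39. The cause was not tested. Agtr1a gave no value with a minimum of 5 CPM. Agtr1a rested on 20 to 67 reads per library. No paired analysis was possible because the columns carry a library number and no replicate number of the titles.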
